A study of Mus musculus with 4 samples.

Results

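The genes described here are 9 regulators of cell cycle arrest and senescence in the mouse kidney cortex: Ccnd1, Cdkn1a, Cdkn1b, Cdkn2a, Cdkn2b, Cdkn2c, Trp53, Mdm2 and Gdf15. They were chosen by symbol, with no threshold on their values, and all 9 were found among the 32285 genes of the 4 single-cell count matrices. Each matrix came from 1 library of cortex pooled from 2 or 3 male mice, so the level of a gene in a condition was 1 value and no difference between conditions has a replicate check. The 4 conditions were young Tfebfl/fl, young Tfebfl/fl KAP, aged Tfebfl/fl and aged Tfebfl/fl KAP mice, where young means 6 weeks and aged means 24 months of age. All 4 carried floxed alleles of Tfeb, which encodes a transcription factor of autophagy and lysosome genes. The KAP mice also carried Cre recombinase under the promoter of kidney androgen-regulated protein, which is active in the proximal tubule, mainly its S3 segment. Wherever 4 values follow each other below, they are in the order young Tfebfl/fl, young Tfebfl/fl KAP, aged Tfebfl/fl and aged Tfebfl/fl KAP.

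Cells enter S phase when D-type cyclins with CDK4 or CDK6, and then cyclin E with CDK2, phosphorylate the retinoblastoma protein and release E2F. Inhibitors of the INK4 family (Cdkn2a, Cdkn2b, Cdkn2c) block CDK4 and CDK6, while those of the CIP/KIP family (Cdkn1a, Cdkn1b) mainly restrain CDK2. The transcription factor p53, encoded by Trp53, switches on Cdkn1a, Gdf15 and its own ubiquitin ligase Mdm2 after DNA damage. Senescent cells leave the cycle for good, and Cdkn2a and Cdkn1a are the inhibitors most often used to mark them, in the kidney as in other ageing tissues.

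Several of the genes had levels that differed by cell type or age. Promoter sequences are shown for 3 of these: Cdkn2a, with both of its 2 start sites, Cdkn1a and Gdf15. Each is the 250 bases before a start site, read on the strand of the gene from RefSeq on GRCm38.p6. Cdkn1a and Gdf15 also have 2 start sites each, of which the one with a match is shown: the window of Cdkn1a at chr17:29093519-29093768 holds no p53 half-site and that of Gdf15 at chr8:70632457-70632706 no CACGTG. Capitals mark a match to a motif, which is a p53 half-site for Cdkn1a, GGGCGG (the GC box) for Cdkn2a and CACGTG (an E-box, the core of the site bound by TFEB and many other factors) for Gdf15.
Cdkn2a, chr4:89282193-89282442, minus strand: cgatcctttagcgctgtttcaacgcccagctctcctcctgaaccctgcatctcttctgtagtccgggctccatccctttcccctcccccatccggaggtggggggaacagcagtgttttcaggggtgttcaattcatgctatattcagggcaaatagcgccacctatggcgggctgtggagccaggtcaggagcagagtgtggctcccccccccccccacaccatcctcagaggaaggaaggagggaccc
Cdkn2a, chr4:89294620-89294869, minus strand: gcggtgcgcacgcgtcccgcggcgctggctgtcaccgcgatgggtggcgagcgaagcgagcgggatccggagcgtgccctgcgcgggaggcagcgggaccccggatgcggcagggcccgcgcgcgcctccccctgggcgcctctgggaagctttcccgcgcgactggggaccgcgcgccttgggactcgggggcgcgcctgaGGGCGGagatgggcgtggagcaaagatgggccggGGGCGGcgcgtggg
Cdkn1a, chr17:29090729-29090978, plus strand: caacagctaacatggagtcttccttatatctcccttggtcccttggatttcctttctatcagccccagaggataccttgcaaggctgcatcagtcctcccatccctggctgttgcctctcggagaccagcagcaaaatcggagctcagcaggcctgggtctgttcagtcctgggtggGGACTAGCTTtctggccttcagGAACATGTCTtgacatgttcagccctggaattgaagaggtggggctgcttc
Gdf15, chr8:70632096-70632345, minus strand: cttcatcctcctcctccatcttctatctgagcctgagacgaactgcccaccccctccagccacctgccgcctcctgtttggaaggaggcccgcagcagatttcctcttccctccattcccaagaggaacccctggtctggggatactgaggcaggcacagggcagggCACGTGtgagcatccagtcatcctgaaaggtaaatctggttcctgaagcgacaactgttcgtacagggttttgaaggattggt
The first of the Cdkn2a windows precedes the exon that begins the p16INK4a transcript, and the second precedes the exon of p19ARF, an activator of p53 that shares the later exons in another reading frame. With the 50 bases after the start, the first holds 60.3% G or C and 12 CpG, and the second 77% and 45. Windows of this kind were found for 8 of the 9 genes, 12 windows in all, and none was found for Ccnd1. Over both strands, CACGTG occurred in 3 of these 12 and in 7.15% of all 32851 windows, GGGCGG in 7 of 12 and 35.7%, and the p53 half-site in 3 of 12 and 8.36%. TGANTCA (AP-1) was in 0 of 12 and 7.81%, and TATAAA in 1 of 12 and 13.6%. A match describes letters and is no evidence of binding.

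After filtering and removal of likely doublets, 10045, 7895, 5704 and 6547 cells remained, with a median of 11721 to 14707 UMIs (molecules counted) per cell. Clustering without the 9 genes and their pathway lists gave 38 clusters, named from markers as S1/S2 proximal tubule-like, S3 proximal tubule-like and so on. These names were rebuilt here, and S3-like rests on 3 to 4 of its 7 markers. Between pairs of libraries, 10 to 27 kept cells shared a barcode. A level is the UMIs of a gene per 1000000 UMIs of a class of cells (CPM), and a log2 ratio compares 2 such levels, with an exact 95% interval that covers counting error only. Tfeb itself was at 6.53, 5.25, 5.10 and 2.27 CPM in S3-like cells and at 8.26, 8.42, 8.30 and 6.00 in S1/S2-like cells, where a 3′ count may lie outside the deleted part. The summed level of 20 dissociation stress genes was 2533, 2507, 2758 and 2071 CPM in S3-like cells and 4282, 3513, 4471 and 3714 in S1/S2-like cells. Its part in the differences below was not tested. In pooled cortex, fewer molecules in each cell and fewer cells that use the gene cannot be told apart from a class level alone, so shares of cells with a UMI are given beside it.

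In proximal tubule cells, 7 of the 9 genes had the 50 UMIs over both libraries needed for a call at 1.5-fold, and Cdkn2a and Cdkn2b did not. With age in Tfebfl/fl mice, 1 of 7 was past 1.5-fold in S1/S2-like cells (Cdkn1b, higher) and 3 of 7 in S3-like cells (Ccnd1, Gdf15 and Cdkn2c, all lower). Over all genes tested, 9.6% were higher and 8.08% lower in S1/S2-like cells, and 6.4% and 5.89% in S3-like cells. With age in KAP mice, Cdkn2c was past it in S1/S2-like cells (higher; background 11.8% higher, 6.25% lower). The same 3 genes were lower again in S3-like cells, where 6.12% of all genes were higher and 5% lower. Between genotypes, 0 of 7 were past it in S1/S2-like cells in young mice (1.76% higher, 5.52% lower) and 0 of 7 in aged mice (2.92% and 3.16%). In S3-like cells Gdf15 was higher and Ccnd1 lower in young KAP mice (2.96% and 3.66%), and Ccnd1 alone was past it, lower, in aged KAP mice (3.93% and 3.82%).

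Ccnd1 encodes cyclin D1, the cyclin that mitogens induce to start the cycle. Its levels by class ran from principal cell-like cells, with a median over libraries of 818 CPM (726 to 1093), through endothelial cell-like cells at 580 and thick ascending limb-like cells at 464, down to type B intercalated cell-like cells at 20.6 and T and NK cell-like cells at 12.9. S3-like cells stood near the bottom at a median of 43.6 CPM (19.4 to 94.8), while S1/S2-like cells were at 212. No pair of neighbours in this order was separate beyond the range over libraries.

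In S3-like cells, Ccnd1 was at 94.8, 39.0, 48.2 and 19.4 CPM, from 3339, 1182, 1702 and 598 UMIs. The level was highest in young Tfebfl/fl mice and lowest in aged KAP mice, and it was lower both with age and in KAP mice at either age. The log2 ratio of 24 months to 6 weeks was -0.97 (-1.06 to -0.89) in Tfebfl/fl and -1.01 (-1.15 to -0.87) in KAP mice. The log2 ratio of KAP to Tfebfl/fl was -1.28 (-1.38 to -1.19) in young and -1.32 (-1.45 to -1.18) in aged mice. These 4 ratios share libraries and are not separate observations. A Ccnd1 UMI was seen in 52.5%, 25.5%, 35.9% and 15.7% of S3-like cells at medians of 16562, 12999, 21086 and 17872 UMIs per cell. When each cell was thinned to 2000 UMIs, which left out at most 2 cells of a library, the shares were 15.6%, 7.79%, 10.0% and 4.18%. T and NK cell-like cells, which express little cyclin D1, had a UMI in 0% and 7.94% of cells in the Tfebfl/fl libraries, at medians of 2880 and 3282 UMIs.

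The authors' correction for free RNA left entries at an explicit 0, where a count had been removed. For Ccnd1 in S3-like cells these made up 5.13%, 41.0%, 25.5% and 55.1% of entries, the largest share being in the library with the lowest level. This share is not the number of UMIs removed. Before the correction, at least 55.3%, 43.3%, 48.1% and 35.0% of the cells held an entry. With each such entry counted as 1 UMI, the log2 ratios were -0.84 and -0.81 with age and -0.97 and -0.94 between genotypes. The direction was the same and the size smaller. The UMIs were also concentrated, as the 1% of S3-like cells with most held 12.6%, 23.2%, 17.2% and 36.3% of them.

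The 5 clusters of the S3-like class differed in this (the plot of Ccnd1 and Gdf15 by S3-like cluster). In cluster 4, Ccnd1 was at 52.8, 9.55, 25.4 and 6.51 CPM, and in cluster 5 at 71.7, 18.3, 34.7 and 5.85 CPM. The log2 ratio of KAP to Tfebfl/fl there was -2.47 and -1.97 in young and -1.96 and -2.57 in aged mice. Clusters 6 and 12 had smaller ratios, of -0.77 and -1.22 in young and -0.59 and -1.27 in aged mice. Cluster 17, at 125, 107, 101 and 83.7 CPM, had ratios of -0.23 (-0.50 to 0.04) and -0.27 (-0.64 to 0.08), whose intervals included 0.

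Over the classes, Ccnd1 was lower with age in 7 of 13 in Tfebfl/fl and in 9 of 12 in KAP mice, and principal cell-like and endothelial cell-like cells were among those where it was higher in both. S1/S2-like cells had 266, 227, 197 and 196 CPM, with age ratios of -0.43 and -0.21 and a genotype ratio in aged mice of -0.01. Within that class the direction was mixed, as cluster 2 was at 263, 275, 310.5 and 209 CPM, cluster 7 at 137, 78.0, 68.9 and 70.3, and cluster 10 at 629.5, 426, 637 and 627. Thick ascending limb-like cells had 626, 483, 445 and 331 CPM (-0.49 and -0.55 with age) and distal convoluted tubule-like cells 345, 311, 229 and 202 (-0.59 and -0.62). The latter was past 1.5-fold in both genotypes, where 2.17% and 2.11% of all genes were lower. Principal cell-like cells had 736, 726, 900 and 1093 CPM, higher with age by a log2 ratio of 0.29 and 0.59. Endothelial cell-like cells had 596, 458, 733 and 564 CPM, an age ratio of 0.30 in both genotypes and a genotype ratio of -0.38 at both ages. Of this class, cluster 3 was at 946, 619, 926 and 665 CPM in 328, 393, 401 and 695 cells. Cluster 13 was at 206, 159, 282 and 203 CPM in 326, 287, 164 and 246 cells, so the endothelial level also moved with its mix of clusters. Podocyte-like cells had 72.6, 59.5, 182 and 72.6 CPM, but the age ratio of 1.33 in Tfebfl/fl mice (background 13.7% higher) was -1.06 when doublets were kept. The end of Ccnd1 overlaps LTO1 on the other strand by 818 bases, and LTO1 was at 7.15, 4.32, 5.04 and 4.57 CPM in S3-like cells.

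**Figure D1:**
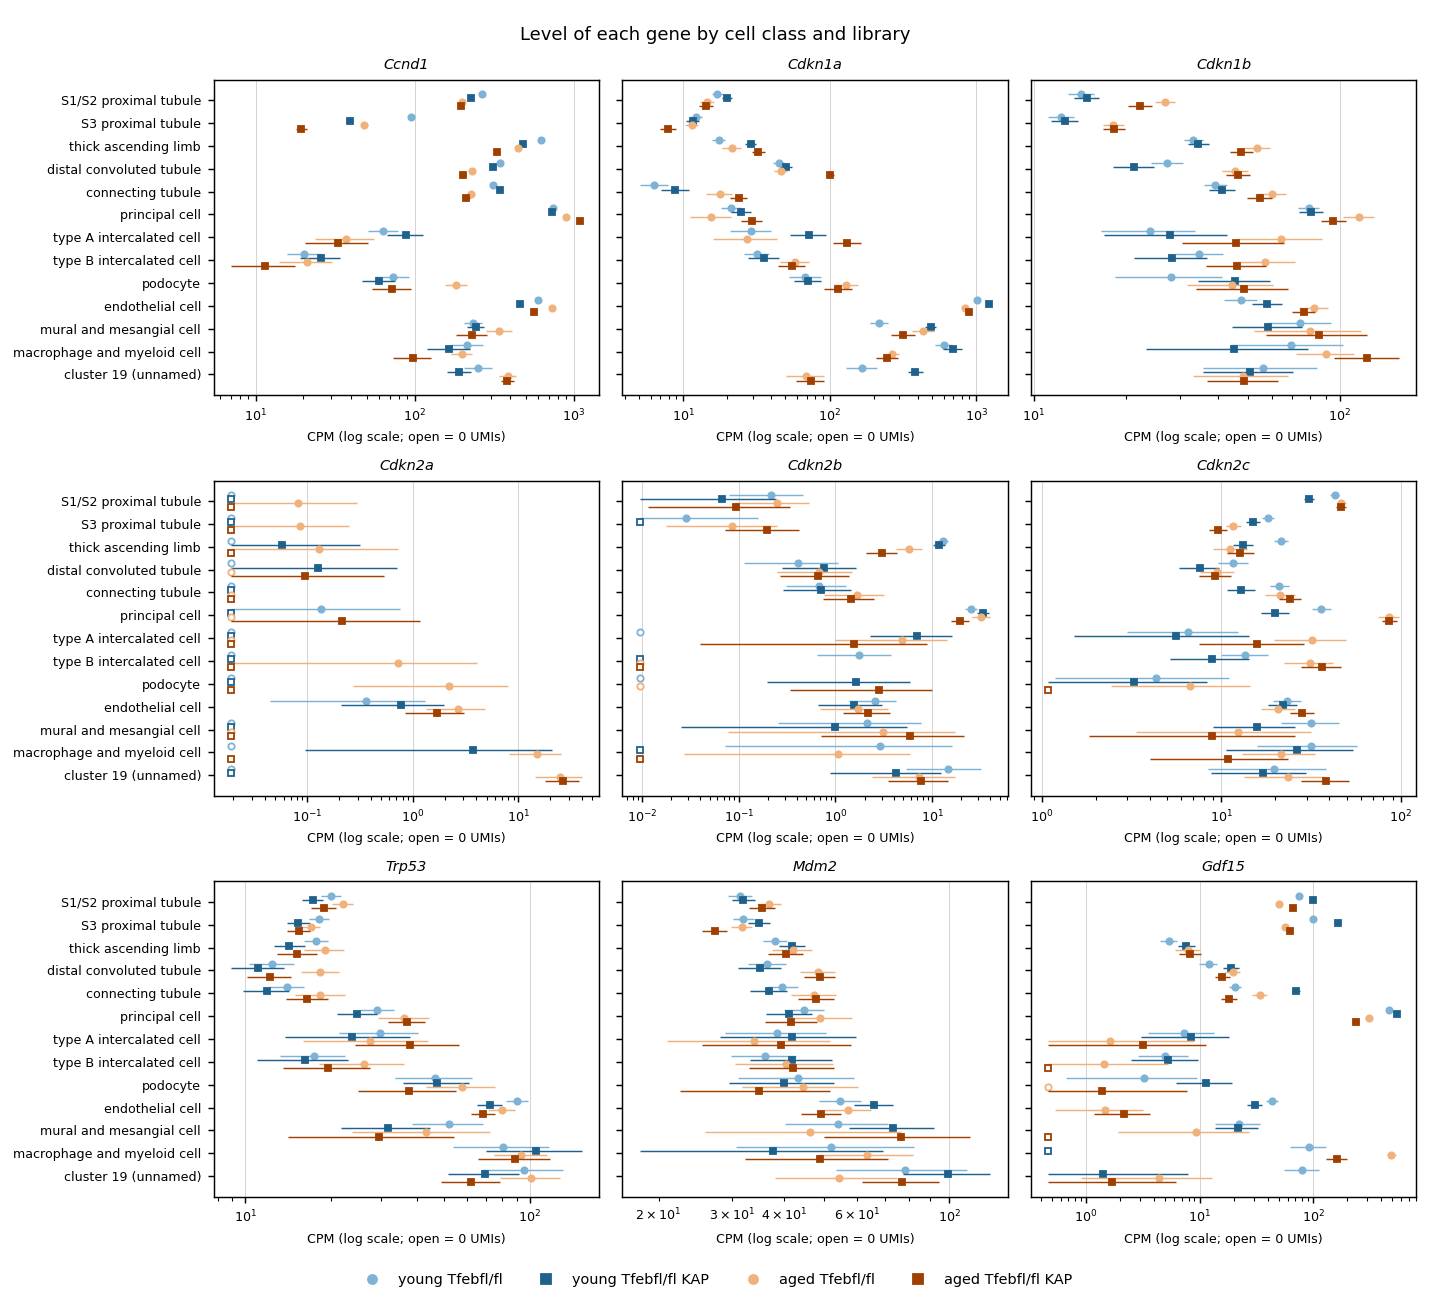
Each panel plots 1 gene as CPM on a log axis in 12 classes and in cluster 19 for the 4 libraries, with 95% Poisson intervals and open points where no UMI was counted. Cdkn1a lies highest in endothelial cell-like cells (834 to 1219 CPM) and Ccnd1 in S3-like cells between 19.4 and 94.8 CPM.

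Cdkn1a encodes p21, the CDK2 inhibitor through which p53 stops the cycle. It was foremost a gene of endothelial cells. Endothelial cell-like cells had 1018, 1219, 834 and 897 CPM, and a UMI in 79.1%, 82.6%, 71.6% and 79.6% of cells. This range (834 to 1219) lay above that of every other class, the next being macrophage and myeloid cell-like cells with a median of 432 CPM (248 to 692) and mural and mesangial cell-like cells with 377 (217 to 489). S1/S2-like cells had 17.2, 19.9, 14.5 and 14.4 CPM and S3-like cells 12.3, 11.6, 11.4 and 7.94. Thinned to 2000 UMIs, 1.88% to 2.24% of S1/S2-like cells and 55.6% to 72.4% of endothelial cell-like cells held a UMI, so the order was the same at equal depth. In the proximal tubule these UMIs sat in few cells, as the 1% with most held 51.8% to 60.2% of them in S1/S2-like and 30.0% to 46.3% in S3-like cells.

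Summed over each proximal tubule class, Cdkn1a was no higher at 24 months than at 6 weeks. The age ratios were -0.24 and -0.47 in S1/S2-like and -0.10 and -0.55 in S3-like cells, in Tfebfl/fl and KAP mice. Within the classes the direction was mixed. Of S1/S2-like clusters, cluster 2 was at 13.5, 18.1, 18.4 and 19.1 CPM and cluster 7 at 19.7, 18.2, 9.39 and 5.98. Of S3-like clusters, cluster 4 was at 3.88, 4.94, 4.47 and 6.95 CPM and cluster 5 at 12.8, 8.26, 12.2 and 4.12. A Cdkn1a UMI was seen in 142 of 1598, 190 of 1431, 129 of 1062 and 116 of 955 S1/S2-like cells. In S3-like cells it was 218 of 1940, 209 of 1759, 188 of 1587 and 134 of 1388. The genotype ratio of -0.53 in aged S3-like cells was -0.06 with explicit 0 entries counted as 1 UMI, since 54.4% of the aged KAP entries were at 0 against 29.3% in aged Tfebfl/fl mice. In endothelial cell-like cells it was lower with age by -0.29 and -0.44, and their dissociation stress genes summed to 33934, 38118, 27584 and 18805 CPM. In macrophage and myeloid cell-like cells Cdkn1a was at 599.5, 692, 265 and 248 CPM, an age ratio of -1.18 (-1.45 to -0.91) and -1.48 (-1.81 to -1.15), where 8.6% and 11% of all genes were lower past 1.5-fold. The stress genes there stood at 39877, 37083, 15987 and 12895 CPM, lower in the aged libraries too.

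The distal nephron was mixed. With age in Tfebfl/fl mice the ratio was -0.45 (-0.99 to 0.05) in principal cell-like, -0.09 in type A intercalated cell-like, 0.04 in distal convoluted tubule-like and 0.29 in thick ascending limb-like cells. In KAP mice it was 0.24, 0.87, 0.99 and 0.17 in these classes, of which the type A ratio reversed when cells were thinned. Type B intercalated cell-like cells were higher with age in both genotypes, by 0.86 (0.42 to 1.29) in Tfebfl/fl and 0.63 (0.17 to 1.10) in KAP mice. In connecting tubule-like cells Cdkn1a was at 6.35, 8.84, 17.8 and 24.0 CPM, an age ratio of 1.49 (1.05 to 1.93) and 1.44 (1.07 to 1.82), where 15.7% and 13% of all genes were higher past 1.5-fold. Stress genes in that class summed to 4546, 6408, 8267 and 4869 CPM. Distal convoluted tubule-like cells had 45.1, 50.5, 46.4 and 100.2 CPM, highest in the aged KAP library (KAP to Tfebfl/fl 1.11 in aged mice, where 1.59% of all genes were higher past 1.5-fold). This class joined cluster 0, at 22.1, 38.0, 38.3 and 54.6 CPM, and cluster 22, at 446, 294, 176 and 393 CPM. Cluster 22 had 59, 45, 49 and 146 cells and held 557 of the 1053 aged KAP UMIs. The class level thus also moved with its mix of clusters. Type A intercalated cell-like cells had 29.1, 72.4, 27.4 and 132 CPM (genotype ratio in aged mice 2.27, background 3.33%). The UMIs numbered 40, 52, 17 and 84, in 23 of 111, 20 of 46, 12 of 46 and 15 of 46 cells. The aged ratio thus came with a similar number of cells holding a UMI. Thick ascending limb-like cells had 17.5, 29.0, 21.5 and 32.7 CPM. Both classes were higher in KAP than in Tfebfl/fl mice at each age, although the ratio of aged thick ascending limb-like cells, 0.61, was -0.20 with clusters weighted alike. In young mice the genotype ratio of Cdkn1a was above 0 in 12 of 13 classes and past 1.5-fold in 4. These 4 were the thin limb-like (5.03% of all genes higher past that fold), thick ascending limb-like (2.9%), type A intercalated cell-like (5.92%) and mural and mesangial cell-like cells (6.94%).

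Cdkn1b encodes p27, the CDK2 inhibitor that accumulates in resting cells. Its level was higher with age in all named classes with enough UMIs, while the unnamed cluster 19 had age ratios of -0.22 and -0.07. In S1/S2-like cells it was at 14.3, 14.9, 26.9 and 22.3 CPM, and in S3-like cells at 12.3, 12.7, 18.2 and 18.3 CPM. Both aged libraries were above both young ones in either class. The age ratio was 0.91 (0.73 to 1.10) and 0.58 (0.39 to 0.77) in S1/S2-like and 0.57 (0.39 to 0.75) and 0.53 (0.34 to 0.72) in S3-like cells. It was above 0 in each of the 8 proximal tubule clusters compared in both genotypes, from 0.02 in cluster 10 of KAP mice to 1.55 in cluster 2 of Tfebfl/fl mice. A UMI was seen in 20.6%, 25.4%, 41.6% and 35.1% of S1/S2-like cells at medians of 16897, 20107, 22658 and 16846 UMIs, and thinned to 2000 UMIs in 3.32%, 2.94%, 6.31% and 4.40%.

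Over the 12 classes with enough UMIs in Tfebfl/fl mice, the Cdkn1b age ratio was above 0 in 12 and past 1.5-fold in 8, with a median of 0.67, and the counting interval lay above 0 in 9. Besides S1/S2-like cells, these 8 were the thick ascending limb-like (8.1% of all genes higher past 1.5-fold), distal convoluted tubule-like (15.5%), connecting tubule-like (15.7%), type A (14.7%) and type B intercalated cell-like (17.3%), podocyte-like (13.7%) and endothelial cell-like cells (8.22%). In KAP mice it was above 0 in 11 of 11 classes and past 1.5-fold in 3, with a median of 0.53 and 9 intervals above 0. These 3 were the distal convoluted tubule-like (13.9%), type B intercalated cell-like (6.9%, with a ratio of 0.70 that was -0.21 when cells were thinned) and macrophage and myeloid cell-like cells (26.7%). Classes of 1 library share its preparation, so they are not replicates of age. For any member, the share of all genes above or below 0 in a class is not given here. A shared sign over classes is therefore not read as particular to a gene. Principal cell-like cells had 79.3, 80.7, 115.5 and 95.5 CPM, endothelial cell-like cells 47.6, 58.1, 82.3 and 76.2, and distal convoluted tubule-like cells 27.3, 21.3, 45.5 and 46.6. Between genotypes no such pattern was seen, with 9 of 12 classes above 0 in young and 5 of 12 in aged mice.

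**Figure D2:**
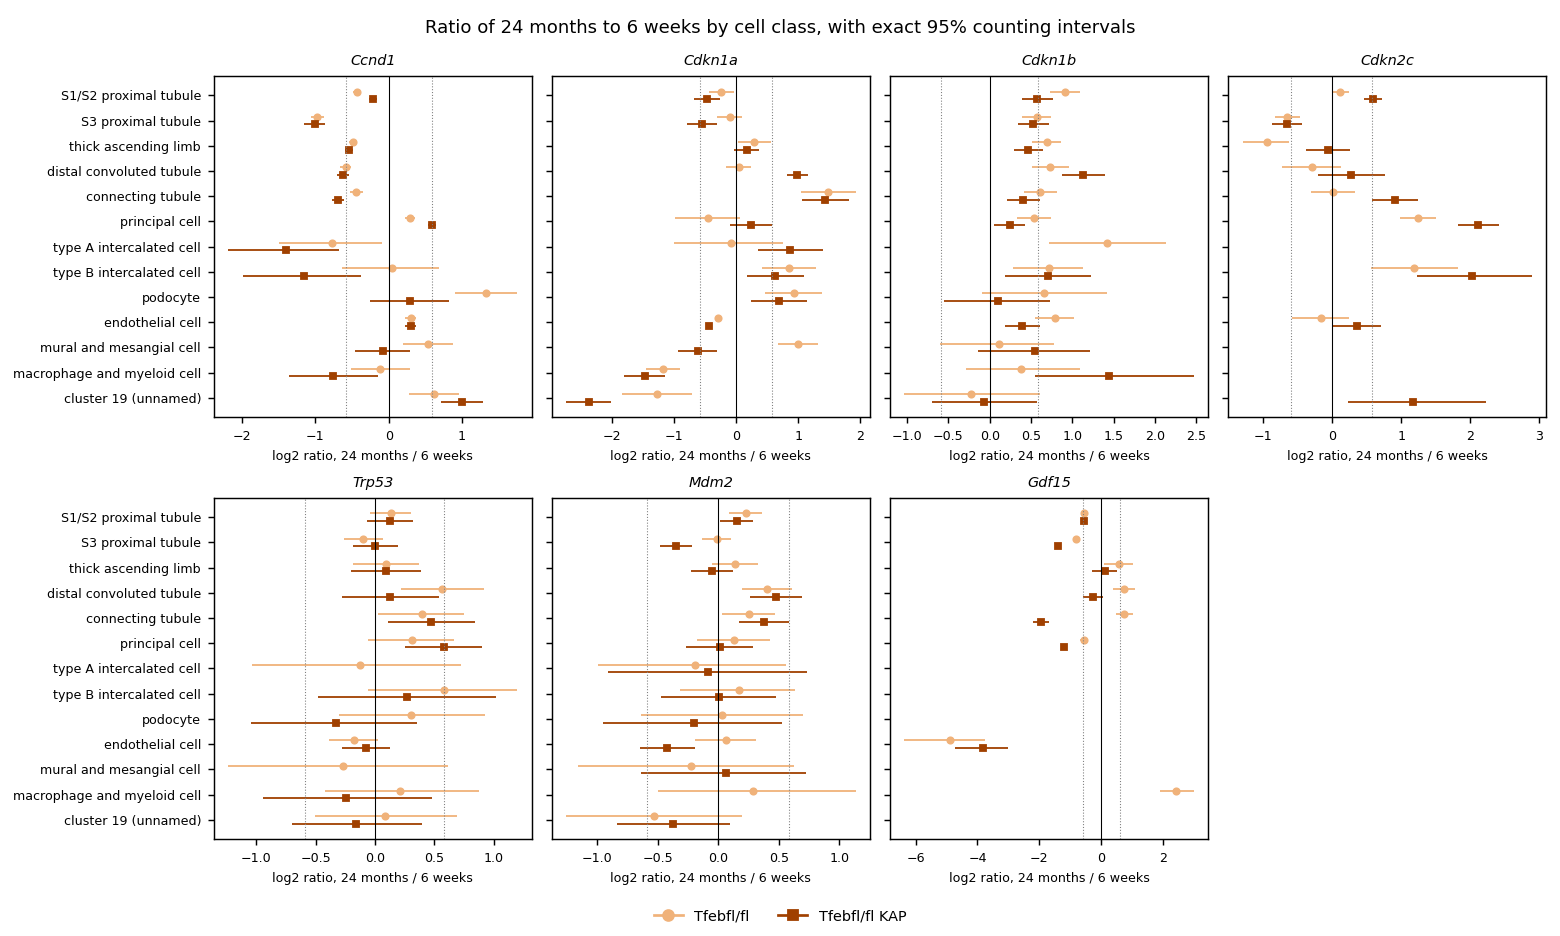
Each panel plots the log2 ratio of 24 months to 6 weeks for 1 gene by class in Tfebfl/fl and KAP mice, with exact 95% counting intervals and dotted lines at 1.5-fold. Cdkn1b lies above 0 in 12 of 12 and 11 of 11 classes, and Gdf15 of macrophages in KAP mice, with 0 UMIs in young mice, is not drawn.

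Cdkn2a, the INK4 gene on chromosome 4 from 89274473 to 89294619, was close to absent in young kidneys and was seen in few cells of aged ones. A 3′ count cannot separate p16INK4a from p19ARF, whose transcripts share their end, so the promoter of origin is unknown. Over all kept cells there were 4, 8, 54 and 49 UMIs in 4, 8, 30 and 29 cells, or 0.0280, 0.0668, 0.531 and 0.470 CPM. The log2 ratio with age was 4.25 (2.81 to 6.17) in Tfebfl/fl and 2.81 (1.72 to 4.10) in KAP mice. Between genotypes in aged mice it was -0.18 (-0.77 to 0.41). These ratios also move with the mix of cells, as cluster 19, with 0, 0, 17 and 31 of the UMIs, had 59, 77, 90 and 180 cells. Their intervals take each UMI as separate, although 14 of the 54 UMIs lay in 3 cells of cluster 26. Of all genes over all cells, 10.6% and 11.3% were higher past 1.5-fold with age.

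Few of the Cdkn2a UMIs lay in proximal tubule cells, as S1/S2-like cells held 0, 0, 2 and 0 UMIs and S3-like cells 0, 0, 3 and 0. In the young Tfebfl/fl library, 0 of 1598 S1/S2-like cells had a UMI, which by the floor of 3 cells allows a share of cells with a UMI of up to 0.188%, and a cell without a UMI may still express the gene. Cluster 19, of 59, 77, 90 and 180 cells, held 0, 0, 17 and 31 UMIs in 0, 0, 7 and 15 cells, that is in 7.78% and 8.33% of its aged cells. This cluster was led by Ptn, Adamts5, Sfrp2, Ccn2, Serpine2 and Itga8 and stayed unnamed. The nearest set was fibroblast with 3 of 6 markers detected, but 0 of the 6 were among its 10 leading genes. Those 10 held more markers of another class, so it is not read as fibroblast. The mural and mesangial cell-like class was led by Acta2, Tagln, Ren1, Tpm2 and Myh11. Whether cluster 19 holds mesangial cells was not tested. Against 3 counts as the floor of each young library, its aged level was 3.39-fold that floor in Tfebfl/fl and 6.21-fold in KAP mice. These folds leave out the counting error of the aged libraries. Its cells were shallow (medians of 4671, 4545, 5914 and 5145 UMIs), so the S1/S2-like cells, with hardly any Cdkn2a, were the deeper ones.

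**Figure D3:**
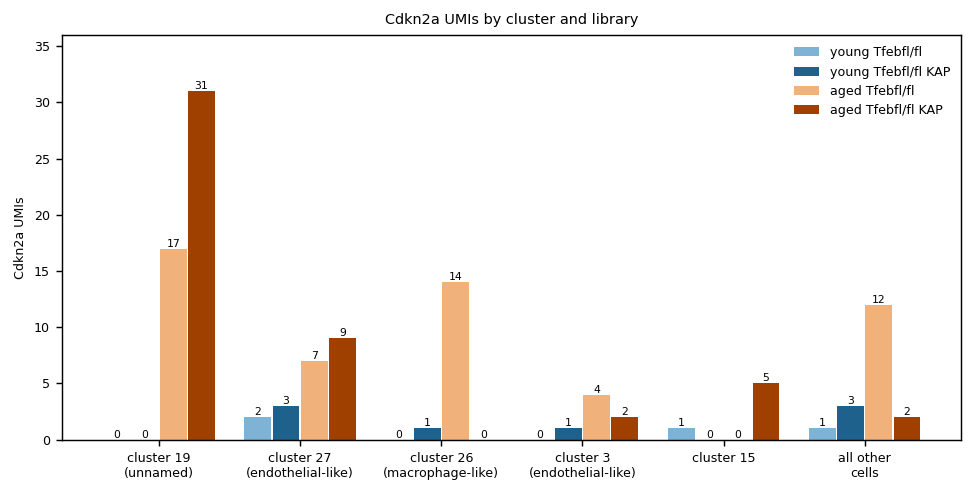
The plot gives the number of Cdkn2a UMIs by cluster and library. Cluster 19 holds 0, 0, 17 and 31, cluster 27 holds 2, 3, 7 and 9, and all cells outside the 5 clusters named hold 1, 3, 12 and 2.

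A further 2, 3, 7 and 9 UMIs were in cluster 27, grouped with the endothelial cell-like class although Ptn, Sfrp2 and Adamts5 led it too (the plot of Cdkn2a UMIs by cluster). Macrophage cluster 26 held 0, 1, 14 and 0 UMIs, of which the 14 were in 3 cells of 1 library. Of the endothelial cell-like cells with a Cdkn2a UMI, 2 of 2, 3 of 4, 7 of 8 and 9 of 10 also had a Cdkn1a UMI, beside 71.6% to 82.6% of all cells of that class. The class share is a low comparator, as 2, 3, 4 and 8 of these cells were in cluster 27. There Cdkn1a was seen in 68 of 69, 60 of 60, 24 of 25 and 44 of 46 cells. With doublets kept, a cluster led by Ptn, Sfrp2 and Adamts5 with Ehd3 and Kdr had a depth of 1.94 times the library median. It stayed unnamed because its deep cells held markers of a second class. Whether cells of cluster 27 were mixed droplets was not tested, so a shared UMI is not read as expression in the same cell. Over all kept cells, 3 of 4, 6 of 8, 12 of 30 and 14 of 29 cells with a Cdkn2a UMI also had a Cdkn1a UMI. In cluster 19 Cdkn1a was at 166, 386, 68.8 and 74.2 CPM, lower in the aged libraries that held Cdkn2a. Ccnd1 there was at 252, 191, 386 and 382 CPM, higher in them.

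Cdkn2b, the neighbour of Cdkn2a that encodes p15INK4b, was highest in the thin limb, the collecting duct principal cells and the thick ascending limb. Thin limb-like cells of young mice had 41.5 and 36.2 CPM, principal cell-like cells 25.2, 33.4, 32.3 and 19.5 and thick ascending limb-like cells 13.0, 11.8, 5.82 and 3.05. Distal convoluted tubule-like cells had 0.41 to 0.76 CPM, connecting tubule-like cells 0.68 to 1.67 and proximal tubule cells at most 0.25. A UMI was seen in 24.5% to 36.1% of principal cell-like cells and in 0% of B cell-like cells. With age it was lower in thick ascending limb-like cells by a log2 ratio of -1.16 (-1.65 to -0.71) and -1.95 (-2.54 to -1.41), where 4.05% and 4.76% of all genes were lower past 1.5-fold. This rested on cluster 8 of that class, at 27.2, 28.2, 10.8 and 4.62 CPM in 723, 404, 142 and 150 cells. Cluster 1, with 1047, 705, 319 and 420 cells, was at 3.33, 2.28, 3.89 and 2.52 CPM and was not lower with age. In principal cell-like cells the age ratio was 0.36 and -0.78.

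Cdkn2c encodes p18INK4c, which is also induced in dividing cells. Proliferating cell-like cells of the young Tfebfl/fl library had it at 279 CPM and in 85.4% of cells. Of the differentiated classes, principal cell-like cells had 36.1, 19.97, 85.5 and 86.4 CPM and type B intercalated cell-like cells 13.6, 8.90, 31.1 and 36.3. In each of these classes the aged libraries were above the young ones. Type A intercalated cell-like cells had 6.55, 5.57, 32.2 and 15.8 CPM, from 9, 4, 20 and 10 UMIs, too few for a call. The age ratio in principal cell-like cells was 1.24 (0.98 to 1.51) and 2.11 (1.82 to 2.42), where 12.8% and 7.19% of all genes were higher past 1.5-fold. In type B intercalated cell-like cells it was 1.19 and 2.03 (background 17.3% and 6.9%). S1/S2-like cells as a class had 42.8, 30.8, 46.6 and 46.6 CPM, with only the young KAP library low. Within that class, both aged libraries were above both young ones in clusters 2, 7 and 10. Cluster 2 was at 49.99, 32.6, 75.4 and 61.1 CPM, cluster 7 at 21.6, 23.3, 28.4 and 34.9, and cluster 10 at 54.5, 41.1, 76.1 and 61.5. Cluster 2 held 795, 798, 322 and 281 cells and the lower cluster 7 held 363, 343, 481 and 362. The class level thus also moved with its mix of clusters. S3-like cells had 18.3, 15.1, 11.7 and 9.59 CPM, an age ratio of -0.64 and -0.65, but thinned to 2000 UMIs per cell the former was 0.31. In young mice Cdkn2c was lower in KAP than in Tfebfl/fl in 8 of 8 classes and past 1.5-fold in 5, the thick ascending limb-like (2.88% of all genes lower past that fold), distal convoluted tubule-like (3.43%), connecting tubule-like (2.62%), principal cell-like (2.16%) and type B intercalated cell-like cells (3.94%). In aged mice the genotype ratio over classes ran from -0.28 to 0.44.

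Trp53 and Mdm2 encode p53 and the ligase that degrades it, and most of their ratios with age and genotype were small. The level of Trp53 did differ by class. Trp53 was past 1.5-fold with age in 0 of 12 classes in Tfebfl/fl and 0 of 10 in KAP mice, with median log2 ratios of 0.17 and 0.11. It was at 20.02, 17.3, 22.0 and 18.9 CPM in S1/S2-like, 18.2, 15.4, 17.0 and 15.4 in S3-like and 90.01, 72.2, 79.6 and 68.5 in endothelial cell-like cells. The KAP library was the lower one of each age in all 3. It also had the larger share of entries at an explicit 0 over all genes (2.90%, 12.5%, 9.41% and 12.9%). The part of these entries in the genotype ratios of Trp53, and of Cdkn2c in young mice, is not given here. Over classes, the genotype ratio of Trp53 was below 0 in 11 of 13 in young and in 9 of 10 in aged mice, past 1.5-fold in 1 and 2 of them (mural and mesangial cell-like, background 3.32% lower, in young mice, and distal convoluted tubule-like, 3.54%, and podocyte-like cells, 10.6%, in aged mice). Mdm2 was past 1.5-fold in none of 12, 11, 12 and 10 classes in the comparisons of age in Tfebfl/fl, age in KAP, genotype in young and genotype in aged mice. It was at 31.4, 32.0, 36.8 and 35.5 CPM in S1/S2-like and 32.0, 34.8, 31.7 and 27.3 in S3-like cells. Regulation of p53 is largely at the protein level, which was not measured in these libraries.

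Gdf15 encodes a secreted stress cytokine that lowers appetite through receptors in the hindbrain, and is a target of p53 and of the integrated stress response. Thin limb-like cells of young mice had the highest levels, 1338 and 792.5 CPM, followed by principal cell-like cells with 463, 551, 310.2 and 238. S3-like cells had 100.7, 164.5, 56.9 and 62.4 CPM and S1/S2-like cells 74.7, 99.6, 50.4 and 66.8. In each of these 3 classes, principal cell-like, S3-like and S1/S2-like, the aged libraries were below the young ones, and in young mice the KAP library was above the Tfebfl/fl one. The age ratio was -0.58 and -1.21 in principal cell-like (background 3.1% and 4.19% lower), -0.82 and -1.40 in S3-like and -0.57 and -0.58 in S1/S2-like cells. The genotype ratio was 0.71 in young and 0.13 in aged S3-like cells, and 0.41 at both ages in S1/S2-like cells. A UMI was seen in 41.6%, 49.7%, 30.6% and 31.1% of S3-like cells, and in 2.56% to 4.35% of B cell-like cells, at medians of 2646 to 3734 UMIs.

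Over the 8 classes with at least 50 UMIs in the pair of libraries, Gdf15 was higher with age in 4 and lower in 4 in Tfebfl/fl mice, and higher in 2 and lower in 6 in KAP mice. Distal convoluted tubule-like cells had 12.01, 19.1, 19.7 and 15.9 CPM, an age ratio of 0.72 in Tfebfl/fl (background 15.5% higher) and -0.27 in KAP mice. Thick ascending limb-like cells had 5.36, 7.67, 7.88 and 8.30 CPM, with age ratios of 0.56 and 0.11.

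The S3-like clusters shared the direction with age. Gdf15 was lower with age in 5 of 5 clusters in either genotype and higher in KAP than in Tfebfl/fl young mice in 5 of 5. Cluster 12, led by Osgin1, Slc25a25, Pck1, G6pc and G0s2, held the most, at 469, 632, 234 and 309 CPM, and the others between 9.15 and 121. It held 1993, 2594, 1036 and 1347 of the 3548, 4985, 2007 and 1927 S3-like Gdf15 UMIs. With doublets kept, the cluster with these leading genes was named S1/S2-like, so its segment is uncertain. Within the S1/S2-like class the direction was mixed, with age ratios of 0.82 and 0.24 in cluster 2, -0.95 and -1.86 in cluster 7 and -1.58 and -0.22 in cluster 10.

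Macrophage and myeloid cell-like cells went the other way with age. They had 92.2, 0, 491 and 163 CPM of Gdf15, from 32, 0, 458 and 90 UMIs, in 6.15%, 0%, 41.1% and 22.8% of 65, 42, 73 and 57 cells. The age ratio was 2.41 (1.89 to 2.98) in Tfebfl/fl mice, where 36.3% of all genes were higher past 1.5-fold. In KAP mice, with 0 UMIs in the young library, the aged level was 14.5-fold that of a floor of 3 counts per library (background 26.7%). The exact interval of that ratio began lower, at a log2 ratio of 3.53. Connecting tubule-like cells had 20.4, 70.9, 33.9 and 18.3 CPM, so that the age ratio was 0.73 in Tfebfl/fl and -1.95 in KAP mice (background 15.7% higher and 2.52% lower). Endothelial cell-like cells had 43.6, 30.6, 1.47 and 2.17 CPM, from 240, 158, 6 and 14 UMIs, with age ratios of -4.90 and -3.81 (background 7.26% and 6.86% lower). Most of the young UMIs lay in cluster 13 of that class, which held 228, 144, 0 and 11. Cluster 3, with 10, 14, 6 and 3 UMIs, was at 6.29, 7.83, 2.38 and 0.793 CPM. A UMI was seen in 7.25%, 3.47%, 0.974% and 0.865% of all endothelial cell-like cells, beside 4.35%, 2.56% and 2.94% of B cell-like cells in the first 3 libraries, each of those from 1 cell. The explicit 0 entries made up 6.67%, 59.1%, 73.9% and 73.5%, and counted as 1 UMI each they gave age ratios of -2.98 and -2.65.

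Genes of these pathways were counted in lists, in the proximal tubule with age in Tfebfl/fl mice. The median log2 ratio of all genes there was 0.06 in S1/S2-like and 0.00 in S3-like cells. The counts in these lists stand beside 9.6% of all genes higher and 8.08% lower in S1/S2-like, and 6.4% and 5.89% in S3-like cells. Of p53 targets with enough UMIs, 6 of 26 were past 1.5-fold higher and 3 lower in S1/S2-like cells (median 0.12), and 3 of 27 higher and 4 lower in S3-like cells (median -0.07). Sesn2, a regulator of mTORC1, had a ratio of 1.47 and 0.74 in the 2 classes, and Phlda3, an Akt repressor, 0.92 and 0.83. Gadd45a, a growth arrest gene, had -1.11 and -1.79. Trp53inp1 had -0.94 in S1/S2-like cells. Fas, a death receptor, had 0.74 and Tnfrsf10b, another, -1.27 in S3-like cells. In KAP mice 5 of 26 p53 targets were higher and 3 lower with age in S1/S2-like (all genes 11.8% and 6.25%), and 2 of 26 and 3 in S3-like cells (6.12% and 5%).

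A list of other CDK inhibitors and related genes went beyond the INK4 and CIP/KIP families. Of it, 0 of 6 were higher and 3 lower with age in S1/S2-like cells, and 0 of 4 in either direction in S3-like cells. Those 4 were Cdk2ap1, Cdkn2aip, Cdk2ap2 and Cdkn2d, of which only Cdkn2d is an INK4 gene. Cdkn3, a phosphatase of dividing cells, had 194 UMIs in young and 5 in aged S1/S2-like cells, and Cdkn1c (p57) 56 and 0. With doublets kept, Cdkn1c was a leading gene of podocyte-like cells. The part of free RNA and of its correction in these Cdkn1c counts was not tested. Cdkn2d (p19INK4d) had ratios of -0.24 and -0.05, Cdk2ap2 0.27 and -0.07, Cdk2ap1 -0.48 and Cdkn2aip -0.09. Among G1 cyclins, kinases, pocket proteins and E2F, 0 of 13 were higher and 3 lower in S1/S2-like cells, and 0 of 14 and 4 in S3-like cells. E2f1 had -2.38 and -1.66 and E2f3 -1.34 and -1.08, while Cdk6 had 0.46 and E2f6 0.37 in S1/S2-like cells and Ccnd3 0.39 and Rbl2 0.41 in S3-like cells. Proliferation genes were lower in 10 of 13 in S1/S2-like cells, with a median of -1.38, and in 1 of 6 in S3-like cells. Ccnb2 had -4.98 and Mki67 -4.29 in S1/S2-like cells, where Mcm6 had -0.24 and Pcna -0.02. In S3-like cells the ends of the list were Mcm5 at -1.78 and Birc5 at -0.35, and Pcna at -0.29 and Tyms at -0.05. The S1/S2-like class includes cluster 34, an S1/S2-like cluster with proliferating cells as its second class. It held 61, 16, 2 and 2 cells, and the counts and ratios of this paragraph in S1/S2-like cells move with it. They are not given without it here.

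Of genes secreted by or kept up in senescent cells, 3 of 14 were higher and 2 lower in S1/S2-like cells (median 0.08), and 3 of 13 and 1 in S3-like cells (median 0.16). Spp1 (osteopontin) had -1.55 and -1.58, and the insulin-like growth factor binder Igfbp3 had -0.82 in S1/S2-like cells. The chemokine Cxcl1 had 0.80 and Cxcl2 went from 0 to 67 UMIs in S1/S2-like cells. With doublets kept, Cxcl2 was a leading gene of macrophage and myeloid cell-like cells. The part of free RNA and of its correction in these Cxcl2 counts was not tested. In S3-like cells Timp2, an inhibitor of matrix metalloproteinases, had 1.22 and the survival factor Bcl2l1 -0.43. In KAP mice 2 of 16 were higher and 4 lower in S1/S2-like (all genes 11.8% and 6.25%), and 0 of 13 and 3 in S3-like cells (6.12% and 5%).

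The list of integrated stress response genes counts Gdf15 itself. Of it, 1 of 11 was higher and 6 lower in S1/S2-like cells (median -0.60). In S3-like cells 2 of 10 were higher and 2 lower (median -0.31), and Gdf15, at -0.82, was 1 of those 2 lower genes. Phgdh, the first enzyme of serine synthesis, had -3.05 in S1/S2-like cells, Ddit4 -1.996 and -2.62, and Atf3 0.50 and 0.93. In KAP mice 1 of 10 was higher and 4 lower in S1/S2-like (median -0.51, all genes 11.8% and 6.25%), and 0 of 10 and 4 in S3-like cells (median -0.49, all genes 6.12% and 5%). Dissociation stress genes were higher in 3 of 20 and lower in 1 in S1/S2-like, and 6 and 2 of 20 in S3-like cells, with Hspa1b at 1.605 and 1.29 and Socs3 at -0.73 and 1.26. The other ends of that list were Klf4 at 0.66 and Ier2 at -0.50 in S1/S2-like cells, and Ier3 at -1.38 and Ier2 at -0.65 in S3-like cells. In KAP mice, against the same shares of all genes, 1 was higher and 9 lower with age in S1/S2-like (median -0.49), and 0 and 12 in S3-like cells (median -0.81).

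Over the 36 pairs of class and library with enough cells, from 12 classes, the genes whose log2(CPM + 10) was most like a member were sought among 8980. For Cdkn1a these were Unc5b, Asap1 and Adamts5, each at a Pearson r of 0.95. For Cdkn1b they were Wrn (0.94), Tcea1 and Mycbp2 (0.93), and for Mdm2 Emsy (0.89), Zfp639 and Creb1 (0.88). For Ccnd1 they were LTO1 (0.82), the gene that overlaps its end, Ntn4 (0.81) and Sclt1 (0.80), and for Gdf15 Dhrs1, Veph1 and Car5b (0.83). Between members, r was 0.79 for Cdkn1a and Trp53, 0.78 for Cdkn1a and Mdm2, 0.72 for Cdkn1b and Mdm2, 0.64 for Cdkn2b and Gdf15 and -0.30 for Cdkn1a and Gdf15. The points share libraries and classes, so these are descriptions of likeness over cell types.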

How the data were processed

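Cortex of male mice, pooled from 2 or 3 per condition, was dissociated and 1 library of 3′ single-cell RNA was made for each of the 4 conditions. The deposited values are UMI counts per gene and cell, made by the authors with Cell Ranger 6.0.0 on mm10 and corrected for free RNA with SoupX. Barcodes numbered 16945, 12685, 8358 and 10097 (young Tfebfl/fl, young Tfebfl/fl KAP, aged Tfebfl/fl, aged Tfebfl/fl KAP), with 194747936, 155327520, 125729484 and 135792884 UMIs. The corrected matrices hold 2.90%, 12.5%, 9.41% and 12.9% of entries at an explicit 0.

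Cells with at least 1000 genes and at most 50% mitochondrial counts were kept, and the highest doublet scores (0.8% per 1000 cells) were removed, 8.81%, 6.78%, 4.79% and 5.54% of cells. Clustering used 2000 variable genes without members and lists, 30 principal components, Harmony, 20 neighbours and Leiden at resolution 1 (Python 3.11.15, scikit-learn 1.9.0, leidenalg 0.10.2). A class is reported for a library with at least 20 of its cells, and its name needs at least 3 markers. Counts were summed per class and library. Intervals are exact (Poisson for CPM, Clopper-Pearson for shares, and conditional binomial for ratios) at 95% (scipy 1.17.1) and cover counting error only. A gene is past the fold at 1.5-fold with at least 50 UMIs over both libraries. With 1 library per condition no test was made. On simulated counts for aged against young Tfebfl/fl S3-like cells, with 193 of 11393 genes changed, the sign was right for 100% and 95.5% of intervals held the true ratio. These counts were drawn from 1 summed profile without spread between cells or libraries. The run therefore checks the calculation only and cannot show how the intervals hold for real cells.

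The members and lists were chosen with earlier results of these data known. Named genes are all members, the 2 highest and 2 lowest ratios of each list in aged against young Tfebfl/fl mice, and the 3 genes most like each of 5 members. A gene of the lists that this rule named is not reported here. Promoters came from RefSeq (GRCm38.p6) by symbol. Alternatives covered cell filters, clustering, doublets, depth, scaling, the minimum of UMIs and the explicit 0 entries.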

Additional observations from a re-analysis of the deposited data

Results flagged for a closer look

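In 2 cases the age ratio of a gene was past 1.5-fold in both genotypes but in opposite directions, and the difference between genotypes was not tested, since each ratio comes from 1 pair of libraries. Cdkn1a in mural and mesangial cell-like cells had a log2 ratio of 24 months to 6 weeks of 1.003 in Tfebfl/fl and -0.62 in KAP mice, from levels of 217, 489, 435 and 318 CPM, where the young Tfebfl/fl library was the low one. The classes held 155, 159, 35 and 48 cells, and the former ratio was -0.081 with clustering at a resolution of 0.5. Gdf15 in connecting tubule-like cells had 0.73 in Tfebfl/fl and -1.95 in KAP mice, where the young KAP library, at 70.9 CPM, was the high one.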

How the results depend on the processing

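No paired analysis was possible because each condition was 1 library, and for the same reason no library could be left out. Of 86 member ratios past 1.5-fold over the classes, 77 kept their sign in every alternative and 39 stayed past the fold in all of them. In S3-like cells these were 8 and 5 of 9, and in S1/S2-like cells 2 and 0 of 2. Alternatives for other classes, the explicit 0 entries, the removal of the top 1% of cells and the removal of a cluster were chosen after seeing the data. Depth limits Cdkn2a and Cdkn2b of the proximal tubule, which had too few UMIs for a call (Cdkn2b in KAP S3-like cells had 0 in young and 6 in aged mice). The cause of the moves below was not tested.

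Reversed ratios were Cdkn2c with age in Tfebfl/fl S3-like cells (0.31 thinned to 2000 UMIs), Cdkn1a and Ccnd1 with age in Tfebfl/fl podocyte-like cells (-1.04 and -1.06 with doublets kept), Cdkn1a with age in KAP podocyte-like cells (-0.65) and Ccnd1 between aged genotypes there (0.34), both with doublets kept. Cdkn1a reversed with age in Tfebfl/fl mural and mesangial cell-like cells (-0.081 at resolution 0.5), with age in KAP type A intercalated cell-like cells (-0.33 thinned, -0.18 without the 1% of cells with most UMIs) and between aged genotypes in thick ascending limb-like cells (-0.20 with clusters weighted alike). Cdkn1b reversed with age in KAP type B intercalated cell-like cells (-0.21 thinned).

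The number of members past 1.5-fold with age in Tfebfl/fl S1/S2-like cells, 1, was 3 without integration and 2 with doublets kept, thinned, with CPM averaged over cells, centred on the median gene, with no minimum of UMIs, with clusters weighted alike or without the cycling cluster. In KAP mice it was 1, and 0 with at most 20% mitochondrial counts or with explicit 0 entries as 1 UMI, 2 at resolution 0.5, with CPM averaged or with clusters weighted alike, and 4 without the 1% of cells. In S3-like cells, 3 with age in Tfebfl/fl mice became 5 with no minimum, and 3 in KAP mice became 5 with doublets kept and 6 thinned. Between genotypes in young mice, 0 in S1/S2-like cells became 1 with at most 20% mitochondrial counts or no minimum, and 2 in S3-like cells became 1 with at most 20% mitochondrial counts or CPM averaged. In aged mice, 0 in S1/S2-like cells became 1 with CPM averaged and 2 with no minimum, and 1 in S3-like cells became 2 with at most 20% mitochondrial counts, doublets kept or clusters weighted alike, and 3 thinned or with no minimum.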
